A study of Homo sapiens with 2 samples.

Results

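The transcripts described here are small RNA host genes, long noncoding RNAs that carry small nucleolar RNAs (snoRNAs) or microRNAs within them. Members were chosen by symbol alone: in the probe annotation the name begins with SNHG, begins with MIR and ends with HG, or is GAS5 or DLEU2. The antisense gene EPB41L4A-AS1 was left out. The rule gave 75 genes of the 19775 on the array, of which 25 are snoRNA hosts (SNHG genes and GAS5) and 50 are microRNA hosts (MIR genes and DLEU2). They are named on 145 of 54675 probe sets.

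The arrays compare KG1 cells that received an siRNA against T-bet (siRNA-Tbet, 1 array) with KG1 cells that received a control siRNA (siRNAc, 1 array). KG1 is an established human leukaemia line with features of early myeloid progenitors, and T-bet, the product of TBX21, directs type 1 immune responses as a transcription factor. Both groups were electroporated with 1.98 µg of siRNA, rested for 5 h and given interleukin-18 at 10 ng/ml for 12 h, so neither array shows unstimulated or untransfected cells. With 1 array per group there is no replicate error and no test for any value below, and the number of arrays limits the precision. Values are MAS5 signals in arbitrary units.

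Most human snoRNAs are cut from introns of a host transcript. The spliced host RNA of many SNHG genes has little coding capacity and is removed by nonsense-mediated decay, while the snoRNAs it carried guide the chemical modification or cleavage of ribosomal RNA. Many such hosts start with a run of pyrimidines, the terminal oligopyrimidine feature they share with ribosomal protein genes. MicroRNA hosts are transcripts from which the nuclear enzyme DROSHA cuts microRNA hairpins. The array reads the host transcripts and not the mature small RNAs, so a host signal is not a measure of the small RNA it carries.

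The mature microRNAs carried by the better known hosts are shown because they set which targets a host could reach. Capitals mark the seed, bases 2 to 8, and the sequences and positions are RefSeq's on GRCh38.p14, 5′ to 3′. MIR155HG carries the immune microRNA miR-155, and MIR17HG carries the growth-promoting miR-17 to miR-92a cluster.
hsa-miR-155-5p in MIR155HG (chr21:25573983-25574006, plus strand): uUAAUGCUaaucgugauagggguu
hsa-miR-17-5p in MIR17HG (chr13:91350618-91350640, plus strand): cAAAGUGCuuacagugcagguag
hsa-miR-20a-5p in MIR17HG (chr13:91351072-91351094, plus strand): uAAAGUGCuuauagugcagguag
hsa-miR-18a-5p in MIR17HG (chr13:91350756-91350778, plus strand): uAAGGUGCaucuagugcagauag
hsa-miR-19a-3p in MIR17HG (chr13:91350939-91350961, plus strand): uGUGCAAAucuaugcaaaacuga
hsa-miR-92a-3p in MIR17HG (chr13:91351361-91351382, plus strand): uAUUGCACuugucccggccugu

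Separate hosts carry microRNAs of 1 seed family. DLEU2, a gene of the chromosome 13 region often deleted in chronic lymphocytic leukaemia, carries miR-15a and miR-16, and MIR497HG on chromosome 17 carries miR-195 and miR-497. All 4 share the seed AGCAGCA. It is also the seed of miR-424, which the annotation lists with MIR503HG although the mature miR-424-5p lies outside that gene's RefSeq interval.
hsa-miR-15a-5p in DLEU2 (chr13:50049167-50049188, minus strand): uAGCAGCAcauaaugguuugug
hsa-miR-16-5p in DLEU2 (chr13:50049027-50049048, minus strand): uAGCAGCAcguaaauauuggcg
hsa-miR-195-5p in MIR497HG (chr17:7017667-7017687, minus strand): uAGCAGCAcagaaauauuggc
hsa-miR-497-5p in MIR497HG (chr17:7017979-7017999, minus strand): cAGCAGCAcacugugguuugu
hsa-miR-424-5p beside MIR503HG (chrX:134546680-134546701, minus strand): cAGCAGCAauucauguuuugaa

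How a probe set is listed decided which hosts could be read by name. Of the 145 probe sets, 79 list the host alone, 44 list it with small RNAs that lie inside the host gene, and 22 list it with other genes. Only 12 of the 25 snoRNA hosts and 37 of the 50 microRNA hosts have a probe set of their own. Another 22 hosts, among them SNHG1, SNHG5, SNHG6, MIR155HG and MIR22HG, appear only together with their nested small RNAs. The annotation does not say which listed gene such a probe set reads, so these signals are given with their listing, outside the main counts, in a set added after the data were seen. The remaining 4 hosts appear only with other genes.

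A probe set counted as measured when its signal lay above that array's median on at least 1 array. The medians were 144 with siRNA-Tbet and 146 with siRNAc, and lower signals were raised to them before a ratio was taken. In the main setting each gene stands by its brightest probe set listed for it alone, avoiding the cross-hybridising suffix _x_at where possible. A ratio is siRNA-Tbet over siRNAc. Probe sets of 1 gene differed from each other with a log2 spread of 0.40 in the lowest of 10 signal bins and 0.18 in the highest, a measure that covers technical noise only. TBX21 itself, the siRNA's target, gave 1839 with siRNA-Tbet against 3581 with siRNAc, or 51.3% of the control level. Of 5 markers of the KG1 progenitor and myeloid state, 4 were measured, with log2 ratios of -0.06 (PTPRC) to 0.45 (GATA2), and CD34 gave 17130 with siRNA-Tbet and 15839 with siRNAc. SPN was below the floor at its representative probe set, at 37.1 with siRNA-Tbet and 49.3 with siRNAc, and above it only at cross-hybridising ones. CD14 and EPCAM, markers of monocytes and epithelium, were at or below 10.1. Both are on a list of 9 markers of other cells, of which 5 were measured. The brightest of the 5 was CD79A (528 with siRNA-Tbet and 530 with siRNAc). The others, siRNA-Tbet first, were KRT8 (304 and 319), CD3E (250 and 211), HBB (227 and 152) and MS4A1 (88.3 and 183). The log2 ratios of the 5 ran from -0.35 to 0.58, with a median of -0.01.

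The snoRNA hosts had nearly the same signals on both arrays. Of the 12 with a probe set of their own, 6 were measured, 3 with a higher and 3 with a lower signal in siRNA-Tbet cells, and the median log2 ratio was 0.03. None of the 6 differed by 1.5-fold. Over all 12164 measured genes the median was -0.02, and 1.96% were at least 1.5-fold higher and 2.96% at least 1.5-fold lower. With nested listings added, 19 snoRNA hosts were measured, the median log2 ratio was 0.06, or 4.33% higher, and 0 of 19 differed by 1.5-fold. Of these 19, 13 were higher and 6 lower, against 46.3% higher among all measured genes. Within the spread between probe sets at their signal lay 17 of the 19, as did 9257 of all 12164 measured genes.

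**Figure D1:**
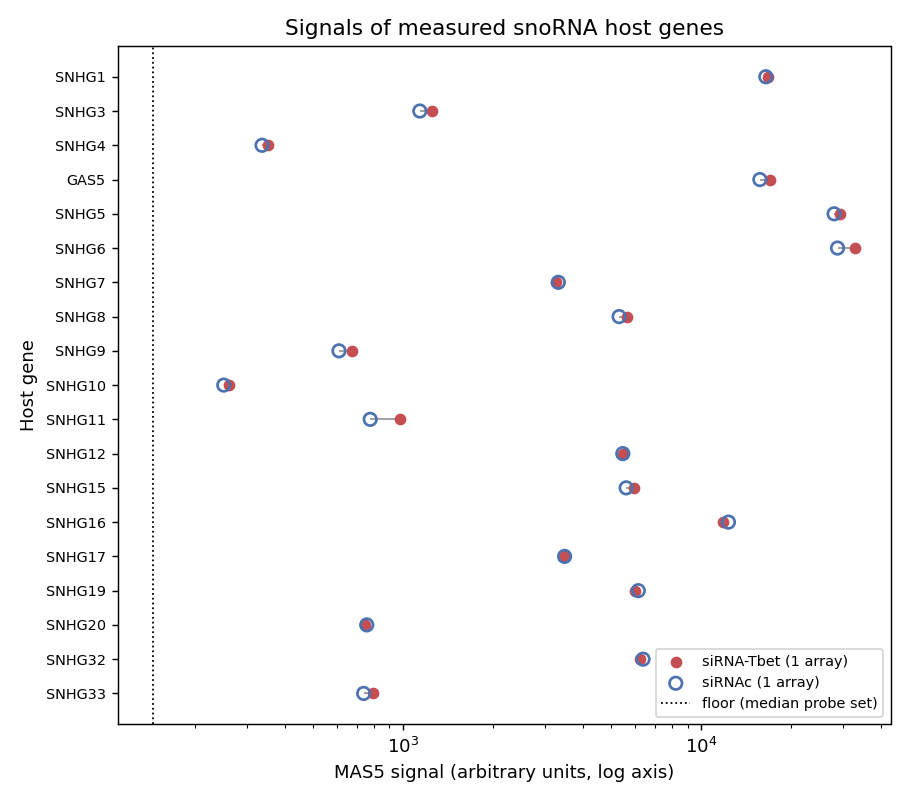
Signals of the 19 measured snoRNA hosts on the siRNA-Tbet array (filled red) and the siRNAc array (open blue), in MAS5 units on a log axis, nested listings included. The 2 marks nearly coincide for most hosts, and the widest gap is at SNHG11 (978 with siRNA-Tbet and 775 with siRNAc). A dotted line marks the floor.

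The hosts listed alone spanned dim and bright signals. SNHG32, formerly known as an open reading frame of the MHC class III region, read 6257 with siRNA-Tbet and 6383 with siRNAc. SNHG19 had 5980 with siRNA-Tbet and 6152 with siRNAc, on a cross-hybridising probe set. SNHG17 had 3477 and 3182 with siRNA-Tbet at its 2 probe sets, against 3481 and 3398 with siRNAc. In these 3 hosts the siRNA-Tbet signal was the lower one at each probe set, by at most 6.35%. SNHG4, which shares its locus with the RNA-binding protein gene MATR3, had 351 with siRNA-Tbet and 336 with siRNAc on the only probe set listed for it alone. Probe sets listed for SNHG4 and MATR3 together ran from -0.43 to 0.56 in log2 ratio over the 7 that were measured. SNHG33 had 791 and 635 with siRNA-Tbet at its 2 probe sets and 737 and 917 with siRNAc, so the 2 pointed in opposite directions.

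GAS5, a growth arrest gene that carries box C/D snoRNAs, was read by 5 measured probe sets. At the dim one listed for GAS5 alone, the siRNA-Tbet signal of 624 was 1.33-fold higher than the siRNAc signal of 468. The other 4 list GAS5 with 8 nested snoRNAs. Of these, 3 were bright and close to equal, with 18489, 18961 and 16983 in siRNA-Tbet cells against 17432, 18943 and 15735 in siRNAc cells. The other one went the other way, with 6430 in siRNA-Tbet cells and 7494 in siRNAc cells. The log2 ratios of the 5 thus ran from -0.22 to 0.42, and the 3 brightest lay between 0.00 and 0.11.

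Bright hosts with shared listings differed little. The probe set of SNHG1, the U22 host gene, lists 8 snoRNAs beside it and had 16697 with siRNA-Tbet and 16477 with siRNAc. SNHG5, the U50 host gene, is listed with SNORD50A and SNORD50B and had 29129 with siRNA-Tbet and 27921 with siRNAc. Both lay within 4.33% of the control signal. SNHG6, listed with SNORD87, had 32915 with siRNA-Tbet against 28674 with siRNAc, 14.8% higher (log2 ratio 0.20, technical spread 0.18). Control probe sets for ACTB and GAPDH, brighter still, had log2 ratios of 0.12 to 0.18 on the same arrays. The median log2 ratio of the 13 snoRNA hosts above a mean signal of 908 was 0.02 as deposited, 0.04 under median scaling, 0.02 after removal of the signal trend and 0.00 after quantile normalization.

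Signals of the other shared listings were likewise close. SNHG8, listed with SNORA24, had 5638 with siRNA-Tbet and 5303 with siRNAc, and SNHG15, listed with SNORA9, had 5953 with siRNA-Tbet and 5601 with siRNAc. SNHG16 was read by 2 probe sets that disagreed in sign, with 11798 and 8200 in siRNA-Tbet cells and 12346 and 7777 in siRNAc cells. SNHG12 had 5458 on both arrays at its brightest probe set, 3271 against 3137 at another and 2718 against 2179 at the dimmest, siRNA-Tbet first in each pair. The last of these is a 1.25-fold difference and exceeds the technical spread of 0.21. SNHG11 had 978 with siRNA-Tbet and 775 with siRNAc (1.26-fold higher), the largest ratio among the representative probe sets of the 19 snoRNA hosts. SNHG3, which carries the U17 snoRNA of ribosomal RNA processing, had 1253 with siRNA-Tbet and 1138 with siRNAc. SNHG7, SNHG9, SNHG10 and SNHG20 had log2 ratios of -0.03 to 0.14 at their representative probe sets. SNHG29 stands by dim probe sets below the floor, but its cross-hybridising one had 2464 with siRNA-Tbet and 2136 with siRNAc.

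The remaining snoRNA hosts were below the floor on both arrays. SNHG18, SNHG22, SNHG24, SNHG27 and SNHG28 had signals of 8.31 to 136 in siRNA-Tbet cells and 2.92 to 131 in siRNAc cells over 6 probe sets. No ratio was taken for them, since values under the floor have no order.

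The microRNA hosts were mostly dim, and their ratios scattered widely around 0. Of the 37 with a probe set of their own, 13 were measured, 6 higher and 7 lower in siRNA-Tbet cells, and the median log2 ratio was -0.005. The filter all but fixed the sign of MIR1-1HG, MIR1915HG and MIR550A3HG among the higher hosts, and fixed that of MIR4435-2HG among the lower. Among the 13, 3 were at least 1.5-fold higher and 1 at least 1.5-fold lower. All 4 had mean signals among the dim genes, where 4.37% of all measured genes were at least 1.5-fold higher and 6.50% at least 1.5-fold lower. With nested listings added, 20 microRNA hosts were measured, 8 higher and 12 lower, with a median of -0.02. Their median mean signal was 323, against 5458 for the 19 snoRNA hosts.

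**Figure D2:**
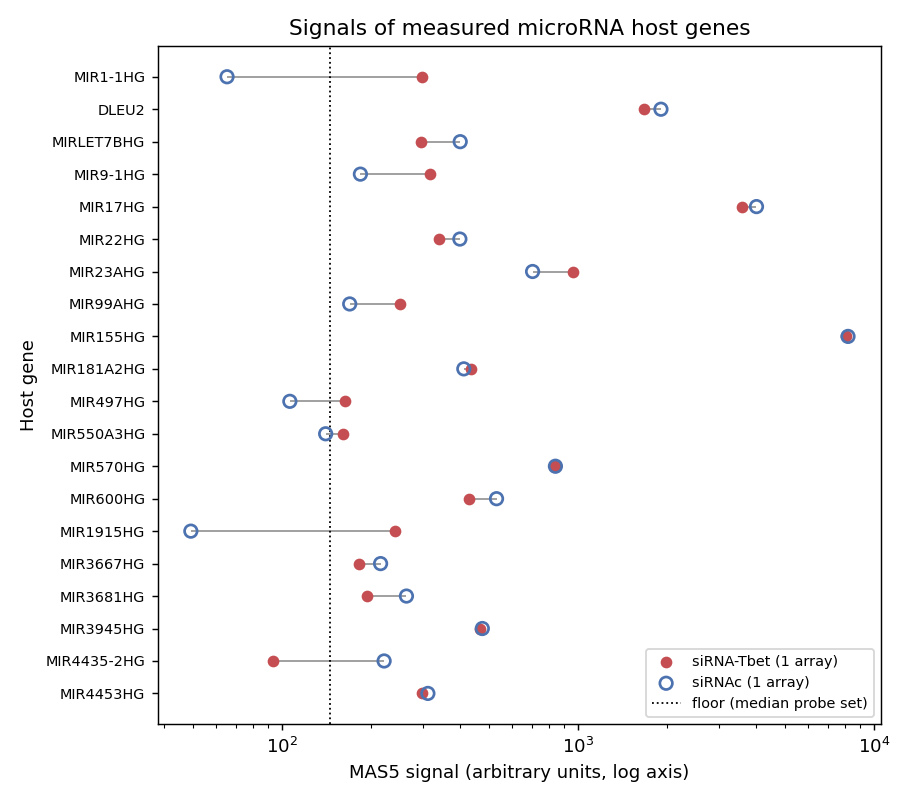
Signals of the 20 measured microRNA hosts on the siRNA-Tbet array (filled red) and the siRNAc array (open blue), in MAS5 units on a log axis, nested listings included. The widest gaps belong to MIR1-1HG and MIR1915HG, whose siRNAc signals lie below the dotted floor, while MIR155HG has nearly the same signal on both arrays.

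MIR155HG, also called BIC and known to be induced by NF-κB in activated leukocytes, had 8070 with siRNA-Tbet and 8180 with siRNAc, on a probe set that lists miR-155's gene too. That is 1.35% lower (log2 ratio -0.02, technical spread 0.17). MIR17HG, a known target of MYC and E2F factors, had 3597 with siRNA-Tbet and 4013 with siRNAc on the probe set that lists it with its 6 microRNA genes, 10.4% lower. This log2 ratio of -0.16 lay within the technical spread of 0.21, and the probe set of MIR17HG alone was below the floor. MIR22HG had 338 with siRNA-Tbet and 399 with siRNAc, also within the spread.

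DLEU2, the host of the miR-15a and miR-16 pair printed above, was read by 7 measured probe sets that list it alone or with MIR15A only. The representative one had 1670 with siRNA-Tbet and 1908 with siRNAc, a log2 ratio of -0.19. A brighter, cross-hybridising set had 3228 with siRNA-Tbet and 2976 with siRNAc. Of the 7, 5 were lower and 2 higher in siRNA-Tbet cells. A lower one, at 87.4 with siRNA-Tbet and 171 with siRNAc, passed the filter only through the siRNAc array, so its ratio could only be negative. A further probe set, listed with MIR15A and the related gene DLEU2L, was the brightest, at 3421 with siRNA-Tbet and 3894 with siRNAc. The lowest log2 ratio was -0.51, at 483 with siRNA-Tbet and 686 with siRNAc, and the highest was 0.24, at 178 with siRNA-Tbet and 151 with siRNAc. MIR497HG, whose microRNAs share that seed, had 163 with siRNA-Tbet and 106, below the floor, with siRNAc, so the filter all but fixed the sign of its ratio. The probe sets listed for MIR503HG and MIR424 had 831 and 767 with siRNA-Tbet against 796 and 787 with siRNAc. Another MIR503HG probe set, which lists MIR503 too, had 554 with siRNA-Tbet and 459 with siRNAc.

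The 4 microRNA hosts past 1.5-fold were read at low signals. MIR1-1HG, whose microRNA miR-1 is best known from muscle, had 298 with siRNA-Tbet and 65.2 with siRNAc, at least 2.04-fold higher and the only host past 2-fold, a limit that 0.222% of measured genes passed upwards and 0.321% downwards. MIR1915HG had 241 with siRNA-Tbet and 49.2 with siRNAc, at least 1.65-fold higher at 1 of its 3 probe sets, the others being below the floor. Both passed the filter only through the siRNA-Tbet array. With floors of 144 and 146, their ratios could therefore only be positive or very slightly negative. MIR9-1HG, whose microRNA miR-9 is best known from the nervous system, had 316 with siRNA-Tbet and 184 with siRNAc at its brighter measured probe set, 1.72-fold higher. Its other measured probe set had 146 with siRNA-Tbet and 251 with siRNAc, 1.72-fold lower. MIR4435-2HG had 93.4 with siRNA-Tbet and 221 with siRNAc, at least 1.54-fold lower, whereas the brighter probe set it shares with its near-identical copy CYTOR had 6916 with siRNA-Tbet and 7257 with siRNAc. It passed the filter only through the siRNAc array, and MIR4435-2HG is therefore uncertain.

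The other measured microRNA hosts stayed under 1.5-fold. MIR23AHG, host of miR-23a and miR-24, had 964 and 439 with siRNA-Tbet at its 2 probe sets and 703 and 422 with siRNAc, both listed with the microRNA genes and both higher in siRNA-Tbet cells. MIR99AHG had 250 with siRNA-Tbet and 169 with siRNAc (1.48-fold higher). MIRLET7BHG, host of let-7 family microRNAs, had 296 with siRNA-Tbet and 400 with siRNAc (1.35-fold lower). MIR3681HG was 1.36-fold lower (194 with siRNA-Tbet and 263 with siRNAc). MIR600HG was lower at both of its probe sets (log2 ratios -0.31 and -0.19), and MIR181A2HG, MIR3667HG, MIR3945HG, MIR4453HG, MIR550A3HG and MIR570HG had log2 ratios of -0.25 to 0.13. The upper end is MIR550A3HG, at 160 with siRNA-Tbet and 140 with siRNAc. It passed the filter only through the siRNA-Tbet array, so its ratio could only be positive or very slightly negative. MIR3147HG was measured only together with another gene (210 with siRNA-Tbet and 260 with siRNAc).

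Another 28 microRNA hosts were below the floor on both arrays at all of their 42 probe sets, with signals of 1.79 to 127 in siRNA-Tbet cells and 0.867 to 97.2 in siRNAc cells. Among them were MIR31HG, MIR34BHG, MIR100HG, MIR124-1HG, MIR124-2HG, MIR133A1HG, MIR137HG, MIR200CHG, MIR205HG, MIR210HG, MIR7-3HG, MIR9-2HG and MIR9-3HG. Several carry microRNAs best known from other tissues, such as miR-133a of muscle, miR-124 and miR-137 of neurons, and miR-200c and miR-205 of epithelium. The others were MIR2052HG, MIR3663HG, MIR3936HG, MIR3976HG, MIR4290HG, MIR4300HG, MIR4307HG, MIR4458HG, MIR4500HG, MIR4697HG, MIR548XHG, MIR646HG, MIR663AHG, MIR670HG and MIR924HG.

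The snoRNA and microRNA hosts were then set side by side. The difference of their median log2 ratios was 0.03 over the hosts with a probe set of their own and 0.08 with nested listings. Ratios ran from -0.07 to 0.33 over the 19 snoRNA hosts and from -0.62 to 1.03 over the 20 microRNA hosts. Both ends of the microRNA range, MIR4435-2HG and MIR1-1HG, had their sign fixed or all but fixed by the filter. Without the 5 microRNA hosts above the floor on 1 array only, the range was -0.44 to 0.78. The signals of the classes differed as well, and dim genes scattered more throughout. Above a mean signal of 908, 13 snoRNA hosts had a median of 0.02 and 3 microRNA hosts (MIR155HG, MIR17HG and DLEU2) had a median of -0.16. None of these 16 differed by 1.5-fold, where 0.393% of such bright genes were 1.5-fold higher and 0.664% were 1.5-fold lower. The part of signal in the difference between the classes was not tested.

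**Figure D3:**
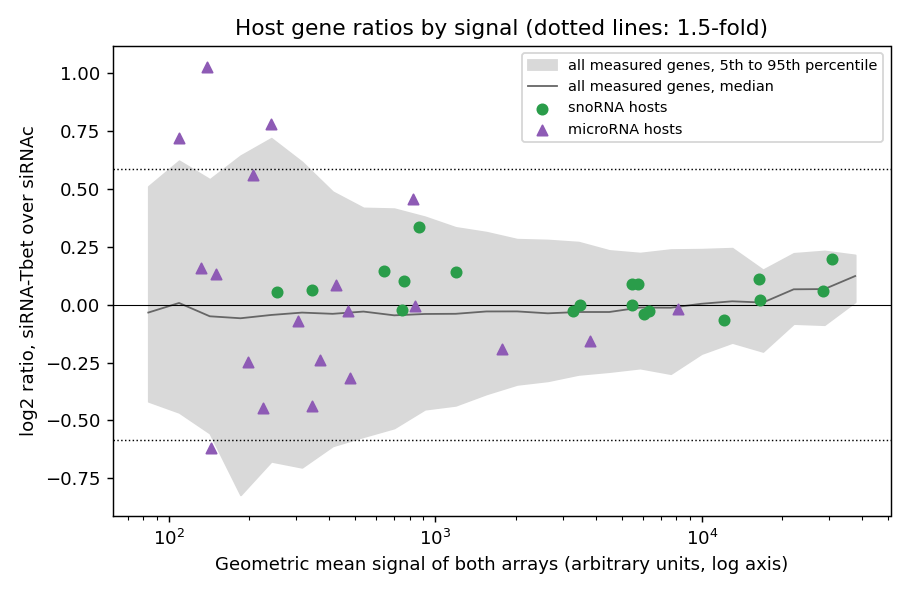
The log2 ratio of siRNA-Tbet over siRNAc against the geometric mean signal of both arrays (arbitrary units, log axis) for snoRNA hosts (green circles) and microRNA hosts (purple triangles). The grey band spans the central range of all measured genes and narrows with signal. The microRNA hosts past the dotted 1.5-fold lines lie at the dim end.

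Probe sets of 1 host often disagreed. Among the 13 hosts with several measured probe sets, listed alone or with nested small RNAs, all probe sets lay on 1 side of 0 in 6 and on both sides in 7. The higher probe set of MIR3667HG, among the 7, had 147 with siRNA-Tbet and 62.0 with siRNAc. It passed the filter only through the siRNA-Tbet array, so its sign was all but fixed. Of all probe sets naming a host, 9 were above the floor on 1 array only. The widest range was that of MIR9-1HG, from -0.78 to 0.78. Counting every measured probe set that names a host, 3 of 76 were at least 1.5-fold higher and 2 of 76 at least 1.5-fold lower, against 2.95% and 3.56% of all 29051 measured probe sets.

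**Figure D4:**
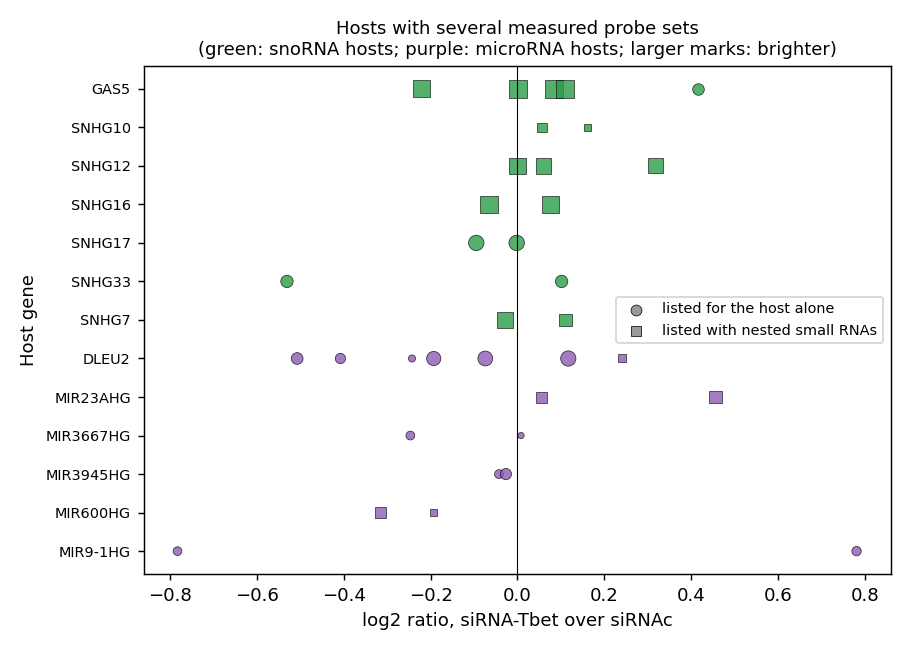
The log2 ratios of siRNA-Tbet over siRNAc for each measured probe set of the 13 hosts that have several, with circles for probe sets listed for the host alone and squares for those listed with nested small RNAs. Larger marks are brighter. GAS5, DLEU2, SNHG33 and MIR9-1HG have marks on both sides of 0.

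A run of pyrimidines was looked for at the annotated gene starts. An unbroken run of at least 5 pyrimidines (C or T) through the first transcribed base was sought, on the gene's strand and at any listed start. Bases before the start counted towards the 5, so such a run is not by itself the terminal oligopyrimidine feature. The run was found in 9 of the 21 snoRNA hosts with a RefSeq start (42.9%) and in 4 of the 38 microRNA hosts (10.5%). It was found in 11.9% of all 27305 genes, and in 10 of 13 ribosomal protein genes that carry snoRNAs. The 40 bases around the start, 15 before it and 25 from it, are printed for 6 of these 9 snoRNA hosts and, as a contrast, for MIR155HG and MIR17HG. Capitals mark the run, which in SNHG8 ends at the first transcribed base.
SNHG12 (chr1:28581849-28581888, minus strand): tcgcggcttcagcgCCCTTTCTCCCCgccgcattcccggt
SNHG5 (chr6:85678709-85678748, minus strand): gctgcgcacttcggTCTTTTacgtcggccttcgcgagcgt
SNHG32 (chr6:31834901-31834940, plus strand): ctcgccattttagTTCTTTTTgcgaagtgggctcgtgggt
SNHG19 (chr16:2155334-2155373, minus strand): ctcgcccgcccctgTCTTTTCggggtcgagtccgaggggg
SNHG8 (chr4:118278747-118278786, plus strand): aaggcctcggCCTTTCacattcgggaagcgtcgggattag
SNHG1 (chr11:62855861-62855900, minus strand): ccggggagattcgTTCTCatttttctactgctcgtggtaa
MIR155HG (chr21:25562130-25562169, plus strand): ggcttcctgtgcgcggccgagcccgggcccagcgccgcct
MIR17HG (chr13:91347672-91347711, plus strand): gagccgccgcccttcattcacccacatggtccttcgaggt

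The 8 measured snoRNA hosts with such a run had a median log2 ratio of 0.01, from -0.04 to 0.09, and the 8 without one had a median of 0.08, from -0.07 to 0.33. In each set 5 of 8 were higher in siRNA-Tbet cells, and the difference between the sets was not tested. GAS5, known as a terminal oligopyrimidine gene, showed no run at the start given by this table, so the annotated start bears on the count.

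Protein-coding genes that carry snoRNAs were measured for comparison. Of 9 ribosomal protein hosts listed alone, 9 were higher in siRNA-Tbet cells as deposited, with a median log2 ratio of 0.14. Under median scaling 9 of 9 were higher, with a median of 0.16, and 8 of 9 after removal of the signal trend, with 0.03. After quantile normalization 6 of 9 were higher, with a median of 0.01. Very bright genes were mostly higher as deposited. Around a mean log2 signal of 15.2, 76 measured genes had a median log2 ratio of 0.12 and a 5th percentile of 0.01. RPL37 had 52529 with siRNA-Tbet and 46380 with siRNAc, and RPL3 and RPL12 were 1.13-fold and 1.12-fold higher on cross-hybridising probe sets. RPL27A was 1.14-fold higher at a dim probe set (358 with siRNA-Tbet and 313 with siRNAc). Other protein-coding hosts had a median of 0.09 over 13 genes, 9 higher and 4 lower. It was 0.11 under median scaling, 0.05 after removal of the signal trend and 0.02 after quantile normalization. NCL, the nucleolar protein nucleolin, had 45227 with siRNA-Tbet and 40620 with siRNAc, and NAP1L4 had 6861 with siRNA-Tbet and 6273 with siRNAc but log2 ratios of -0.02, -0.20 and 0.23 at its others. CWF19L1 (321 with siRNA-Tbet and 375 with siRNAc) and WDR43, a ribosome assembly factor (1805 with siRNA-Tbet and 1993 with siRNAc), were lower. None of the 22 differed by 1.5-fold. Of all 12164 measured genes, 1.96% were at least 1.5-fold higher and 2.96% at least 1.5-fold lower. Few or no such genes are therefore to be looked for in these or the shorter lists that follow.

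Of the genes that assemble snoRNAs into particles, 17 were measured. They had a median log2 ratio of 0.04, 12 higher and 5 lower, with 0 past 1.5-fold at their representative probe sets. The median was 0.06 under median scaling, 0.03 after removal of the signal trend and 0.01 after quantile normalization. Other probe sets of 2 members went further, with NUFIP1 at 411 with siRNA-Tbet and 777 with siRNAc (log2 ratio -0.92, against 0.04 at its representative) and NOLC1 at 0.31 on both of its others, against 0.02. GAR1, a core protein of H/ACA particles, was 1.21-fold higher (4839 with siRNA-Tbet and 3984 with siRNAc). RUVBL2, an assembly ATPase, was 1.23-fold higher on its representative probe set (12430 with siRNA-Tbet and 10101 with siRNAc) but had log2 ratios of -0.28 and 0.04 at its others. TGS1 had 14803 with siRNA-Tbet and 13112 with siRNAc, and SHQ1, an H/ACA assembly factor, had 4248 with siRNA-Tbet and 4730 with siRNAc.

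Factors of nonsense-mediated decay, the pathway that removes many spliced host RNAs, were mostly slightly lower at their representative probe sets. Of 10 measured, 9 were lower and 1 higher, with a median log2 ratio of -0.09, and 0 passed 1.5-fold. Of all 12164 measured genes, 6534 were lower, and their median was -0.02 over all 12164. UPF1, the central helicase, had 1936 with siRNA-Tbet and 2153 with siRNAc, and -0.22 at its second probe set. UPF2 had 5172 with siRNA-Tbet and 5559 with siRNAc. SMG9 had 810 with siRNA-Tbet and 918 with siRNAc, and DHX34 had 964 with siRNA-Tbet and 1093 with siRNAc but 0.08 at its second probe set. At their second probe sets SMG5 had 0.04, SMG9 -0.24 and PNRC2 -0.12. RBM8A, the 1 higher factor, ran from -0.14 to 0.12 at its others. The median stayed between -0.11 and -0.07 under median scaling, quantile normalization and removal of the signal trend. All 10 ratios lay within the technical spread, as did those of 9257 of all 12164 measured genes.

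Among genes controlling terminal oligopyrimidine transcripts, 12 were measured, and their median log2 ratio was 0.02, 8 higher and 4 lower, with 0 past 1.5-fold. MLST8, a subunit of mTOR complexes, had 1519 with siRNA-Tbet and 1911 with siRNAc (1.26-fold lower). EIF4E, the cap-binding protein, RPS6KB1, an S6 kinase, and RPS6, its substrate, were 1.17-fold, 1.16-fold and 1.14-fold higher, with -0.19 at 1 of the other probe sets of EIF4E.

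MicroRNA processing genes had a median of -0.01 over 13 measured, 6 higher and 7 lower, with 0.01 and 7 higher under median scaling, -0.03 and 6 higher after removal of the signal trend, and -0.05 and 5 higher after quantile normalization. AGO2, the Argonaute that holds guide RNAs, was 1.58-fold higher (9970 with siRNA-Tbet and 6300 with siRNAc) and the only member past 1.5-fold at its representative probe set, while PRKRA, a DICER partner, had -0.59 at another of its probe sets. AGO3 was 1.37-fold lower (660 with siRNA-Tbet and 906 with siRNAc), with -0.29 and -0.47 at its other probe sets. LIN28B, an inhibitor of let-7 maturation, had 2615 with siRNA-Tbet and 3307 with siRNAc, and AGO4 had 431 with siRNA-Tbet and 376 with siRNAc.

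Known regulators of microRNA hosts had a median of 0.04 over 14 measured, 10 higher and 4 lower. E2F1, an activator of MIR17HG, was the only member past 1.5-fold, lower at 1152 with siRNA-Tbet and 1733 with siRNAc (log2 ratio -0.59), with -0.43 at its second probe set. MYC, another activator of MIR17HG, was 1.22-fold higher (35926 with siRNA-Tbet and 29515 with siRNAc). RELA, an NF-κB subunit, had 3200 with siRNA-Tbet and 4010 with siRNAc but 0.28 at its second probe set. MYB was 1.27-fold higher at 1 probe set and had -0.32 at the other.

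**Figure D5:**
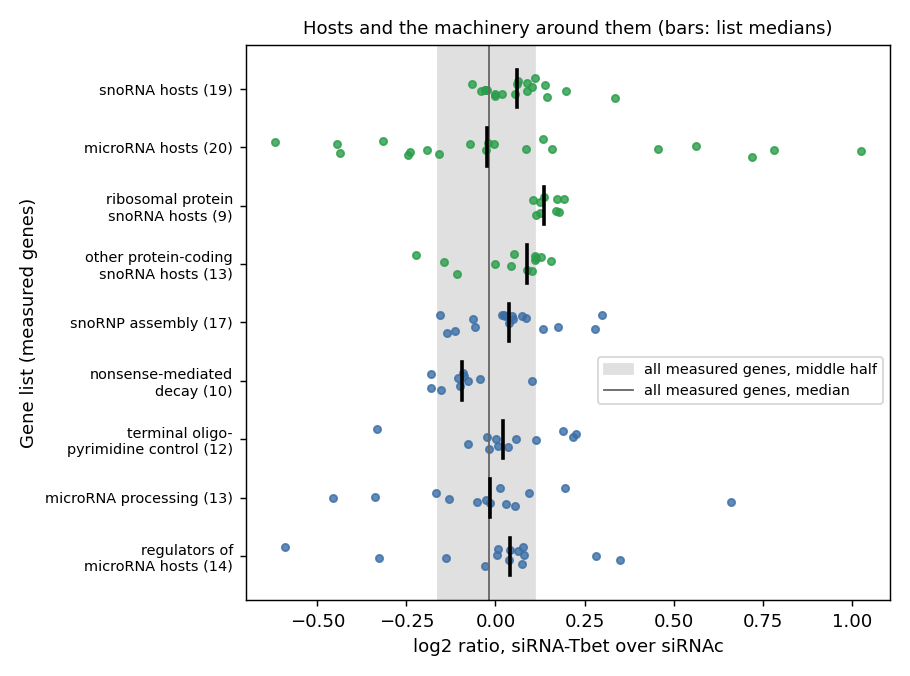
The log2 ratios of siRNA-Tbet over siRNAc for measured snoRNA hosts, microRNA hosts and 7 related gene lists, with 1 dot per gene, a black bar at each median and the number measured beside each name. The grey band is the interquartile range of all measured genes. The microRNA hosts spread most widely and the ribosomal protein hosts least.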

How the data were processed

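The deposited file holds linear signal intensity values, 1 per probe set and array, made with MAS5 per the submitters' processing notes, which name no version. Each array had a trimmed mean of 1000 (2% removed at each end), so no further scaling was applied. MAS5 subtracts mismatch signal, which makes low intensity values noisy. Of 54675 probe sets, 41097 list 1 gene, 1801 list several and 11777 are unnamed here. Names came from the platform annotation, and 41043 single listings matched RefSeq (GRCh38.p14) by Entrez number.

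A gene listed with a host counted as nested when it was a small RNA under 400 bases inside the host's RefSeq interval. All hosts were named, as were TBX21 and the 4 genes of each related list with the largest absolute log2 ratio. NUFIP1, NOLC1, PRKRA, SMG5, PNRC2 and RBM8A were named after their values were seen. No p-value was computed. The members and lists were chosen with earlier results of these data known. The rule's wording on GAS5 and DLEU2 is open to a reading that leaves them out, which was run as an alternative. Python 3.11.15 with pandas 2.3.3 and statsmodels 0.14.6 was used. The procedure was tested on simulated arrays with known shifts.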

Additional observations from a re-analysis of the deposited data

How the results depend on the processing

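No paired analysis was possible because each group has 1 array. Of 99 recomputed summary values, 27 moved by more than the tolerance and 72 did not. The tolerance was 1.5 times for counts and, on the log2 scale, 0.097 for the snoRNA host median, 0.11 for the microRNA host median and 0.147 for their difference, which leaves changes of sign near 0 within it. The floor mattered most. It also changed how many members and genes were measured, so their counts are not to be compared directly. The number of all genes measured is given only for the main floor, at 12164. The all-gene counts at other floors are therefore not shares to set beside those of the members. At the 25th percentile, 9 snoRNA and 31 microRNA hosts were measured. Of these members 5 were 1.5-fold higher and 4 lower, and of all genes 1845 and 1807. At the 75th percentile the counts were 0 and 0 for members, then 3 snoRNA hosts and 1 microRNA host, and 25 and 44 for all genes. The microRNA host median, then DLEU2 alone, was -0.19. With no floor or filter the counts were 12 and 10 for members, then 12 snoRNA and 37 microRNA hosts, and 2887 and 2922 for all genes. The snoRNA host median was then 0.15, and the difference of the class medians was 0.23. Removal of the lowess trend (span 0.3) left 0 members 1.5-fold lower. Second-brightest probe sets, which only 2 snoRNA and 4 microRNA hosts have, gave medians of -0.31 and -0.27, 0 members 1.5-fold higher and 211 genes 1.5-fold lower. A 2-fold limit left 1 member higher and 0 lower, and 27 and 39 of all genes. In the alternative of bright hosts with nested listings, added after seeing the data, the microRNA host median was -0.16 and 0 members were higher and 0 lower. MIR9-1HG changed sign with the median over its probe sets (-0.00090) and with its second probe set (-0.78). The sign of the small difference between the class medians turned, within that tolerance, with the brightest probe set of any suffix (-0.06), with the median over probe sets (-0.03), with second probe sets (-0.04) and without GAS5 and DLEU2 (-0.04), and it reached 0.16 at the 75th percentile floor and 0.18 among bright hosts with nested listings. Except where named, the cause was not tested. Low signal over background limits what can be said of most microRNA hosts.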
